A study of Homo sapiens with 6 samples.

Results

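The genes described here are the nuclear effectors of the Hippo pathway: the coactivators YAP1 and WWTR1 (the gene of TAZ), the 4 TEAD transcription factors TEAD1 to TEAD4, and the Vestigial-like cofactors VGLL1, VGLL3 and VGLL4. They were taken from the table by symbol, and all 9 were found among its 62700 genes. Poly(A) RNA of SAS cells, a human line from a squamous cancer of the tongue, was sequenced after transfection with an siRNA against IGF2BP1 (siIGF2BP1, genotype label IGF2BP1 knockdown; 3 libraries) or with a control siRNA (siC, genotype label WT; 3 libraries). The labels name no siRNA sequence, dose, time after transfection or culture of origin, so the spread between libraries may be technical. The study's question was whether IGF2BP1, which binds mRNAs and protects many of them from decay, counteracts the repression of YAP1 by Hippo signalling.

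YAP1 and TAZ do not bind DNA themselves. When the Hippo kinases are inactive they enter the nucleus, bind TEAD factors and switch on genes of growth and adhesion; when LATS kinases phosphorylate them they are held in the cytoplasm or degraded. The Vestigial-like proteins dock on TEADs through a short Tondu motif: VGLL4 competes with YAP1 and represses, while VGLL1 and VGLL3 can act as cofactors of their own. In squamous carcinomas YAP1 is known as a driver of proliferation. Transcript counts do not show where the proteins are or whether they are phosphorylated.

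Promoter sequences are shown for YAP1, for VGLL3, the one gene of the set that passed the test, and for VGLL1, which together with YAP1 holds a copy of the core TEAD-binding hexamer. The windows are RefSeq's on GRCh38.p14, each the 250 bases before an annotated start on the gene's strand, and the hexamer GGAATG or its reverse complement CATTCC is in capitals where it occurs.
YAP1, chr11:102110197-102110446, plus strand: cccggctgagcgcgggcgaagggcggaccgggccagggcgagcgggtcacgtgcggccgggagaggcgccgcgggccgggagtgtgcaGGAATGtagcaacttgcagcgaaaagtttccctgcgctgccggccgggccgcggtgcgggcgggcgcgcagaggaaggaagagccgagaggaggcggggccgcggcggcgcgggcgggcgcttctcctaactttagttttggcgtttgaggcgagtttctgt
VGLL1, chrX:136531965-136532214, plus strand: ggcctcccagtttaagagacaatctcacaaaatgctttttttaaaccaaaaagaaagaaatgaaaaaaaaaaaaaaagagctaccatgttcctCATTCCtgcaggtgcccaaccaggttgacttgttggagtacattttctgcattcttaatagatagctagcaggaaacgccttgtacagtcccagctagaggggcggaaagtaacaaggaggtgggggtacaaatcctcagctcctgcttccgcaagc
VGLL3, chr3:86991150-86991399, minus strand: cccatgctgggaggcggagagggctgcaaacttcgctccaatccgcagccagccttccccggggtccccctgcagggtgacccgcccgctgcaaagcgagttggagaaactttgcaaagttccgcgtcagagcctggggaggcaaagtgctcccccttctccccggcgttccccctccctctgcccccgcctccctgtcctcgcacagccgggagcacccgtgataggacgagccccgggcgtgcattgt
With the start counted as position 0, the hexamer began at position -162 of YAP1 and at position -157 of VGLL1. The table held windows of 300 bases for 7 of the 9 genes, which excludes TEAD1 and TEAD4, and 2 of these 13 windows (15.4%) held the hexamer on either strand, against 14% of all 35116 windows; counted by gene, 2 of 7 (28.6%) held it, against 16.7% of all genes. Among the 22 YAP/TAZ target genes listed for this report, 16 had windows, and 9 of these 16 genes (56.2%) and 9 of their 18 windows (50%) held it, CCN2, ANKRD1, AXL and AMOTL2 among them. The 22 genes were listed as targets of coactivators that act through TEADs, so their share is not an independent result. A match to 6 letters is a description of the sequence and not a measured binding site.

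IGF2BP1 itself was lower in each knockdown library, at 1.59, 1.09 and 0.806 CPM (counts scaled to library size with TMM factors), than in each control library, at 8.11, 9.60 and 11.2 CPM. Log2 fold changes are knockdown over control throughout, and that of IGF2BP1 was -3.07 with an SE of 0.30 (adjusted p = 4.56e-06). Depth ran from 17918496 to 25926371 reads in the knockdown libraries and from 23775889 to 26675064 in the control libraries, and 3 reads corresponded to between 0.115 and 0.165 CPM. All 12 epithelial markers checked, which include KRT8, KRT18, EPCAM and CDH1 beside squamous keratins, were tested. Their summed levels were 12957 to 13962 CPM in knockdown libraries and 23690 to 25664 CPM in control libraries. The sum is weighted to the most abundant markers and does not show that each was lower. SFN and TP63 of this list had log2 fold changes of -0.04 and -0.01. Mean SFN was 1333 CPM in knockdowns and 1374 CPM in controls, and mean TP63 26.2 CPM in knockdowns and 26.4 CPM in controls. The fall of the sum therefore lay in other markers of the list, which are not given singly here. Of 8 fibroblast markers 4 were at 0 in all libraries (COL3A1, LUM, DCN and THY1), and the sum of the list was 5.72 to 9.24 CPM in knockdown libraries and 6.37 to 8.5 CPM in control libraries. The leukocyte markers PTPRC and CD3E were at 0 in all libraries, while CD14 and CD68 were not. These 4 summed to 12.1 to 14.0 CPM in knockdown libraries and, without overlap, 17.1 to 18.4 CPM in control libraries. Nearly all of this was CD14, at 13.1 CPM in knockdowns and 17.8 CPM in controls (-0.44, adjusted p = 0.0944 by edgeR). Such separation in the lower direction was found for 15.1% of all tested genes. CD68 held 13 reads in knockdowns and 6 in controls. KDR was at 0 among 4 endothelial markers that summed to 6.17 to 13.5 CPM in knockdown libraries and 6.29 to 7.41 CPM in control libraries. Their part in the results was not tested. In such bulk RNA, fewer cells with a transcript and less of it per cell cannot be told apart.

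TEAD2, TEAD3 and TEAD4 transcripts were more abundant than those of the coactivators in every library. Per kilobase of the gene length in the deposited table, TEAD4 stood highest at 35.8 ± 1.74 CPM per kb in knockdown cells and 39.7 ± 1.92 in control cells, and TEAD3 followed at 34.3 ± 6.49 in knockdown cells and 30.8 ± 2.73 in control cells (SD, n = 3 each, as for the levels that follow). TEAD2 came next at 15.7 ± 0.640 in knockdown and 19.0 ± 0.907 in control cells. VGLL4 was the most abundant Vestigial-like gene at 6.69 ± 0.115 in knockdown and 6.81 ± 0.329 in control cells. WWTR1 was at 2.76 ± 0.349 CPM per kb in knockdown and 2.73 ± 0.506 in control cells, and YAP1 at 1.52 ± 0.367 in knockdown and 1.85 ± 0.412 in control cells. The lowest were VGLL3, at 1.12 ± 0.538 in knockdown and 0.543 ± 0.133 in control cells, TEAD1, at 0.351 ± 0.209 in knockdown and 0.212 ± 0.0348 in control cells, and VGLL1, at 0.310 ± 0.142 in knockdown and 0.0579 ± 0.0526 in control cells. This order of the means was the same in both groups. In the controls no gene overlapped the next in the order, while in the knockdowns the ranges of TEAD4 and TEAD3, of YAP1 and VGLL3, and of TEAD1 and VGLL1 overlapped.

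**Figure D1:**
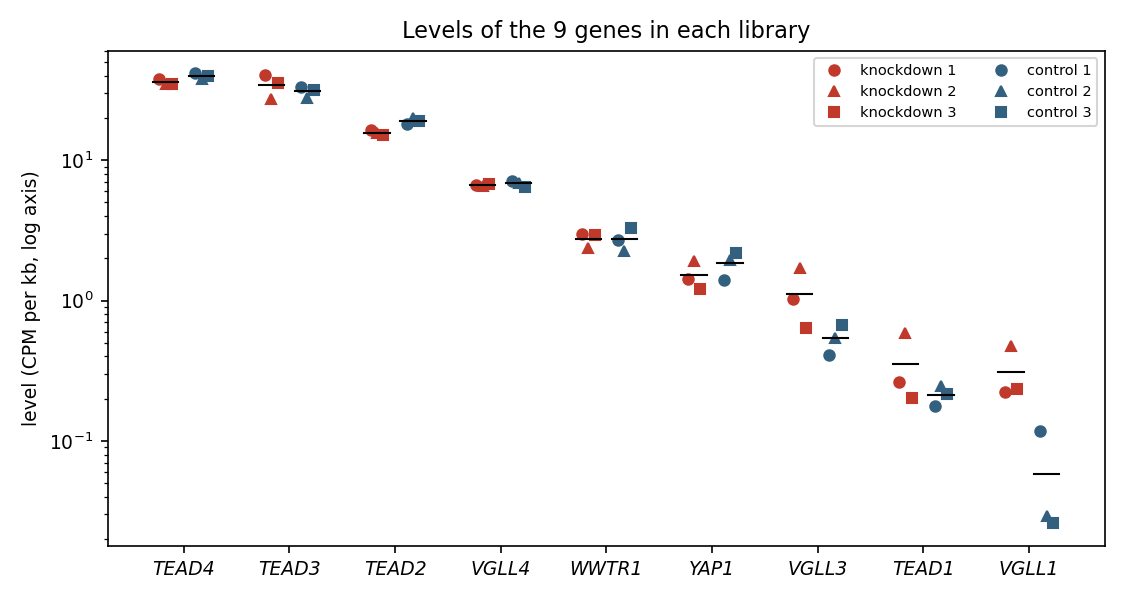
Level of each of the 9 genes (CPM per kb, log axis) in knockdown (red) and control (blue) libraries; symbols give the replicate number and black lines the mean of 3. TEAD4, TEAD3 and TEAD2 lie above 15 CPM per kb in every library, WWTR1 and YAP1 between 1.2 and 3.3, and TEAD1 and VGLL1 below 0.6.

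Of the 8 genes that passed the filter on low counts, 1 rose, 0 fell and 7 were not called by edgeR's quasi-likelihood test at an adjusted p under 0.05; over all 14649 tested genes 12.9% were called, 6.27% higher and 6.66% lower. At an unadjusted p under 0.05, 1 of the 8 was higher (VGLL3) and 1 lower (TEAD2), and DESeq2 also called 1 higher and 0 lower. VGLL1 was the gene not tested. The 1 call is 12.5% of the 8 genes, a share near the background, and so not a result about the set. It was 0 with each library left out except knockdown 3, where it was 1.

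**Figure D2:**
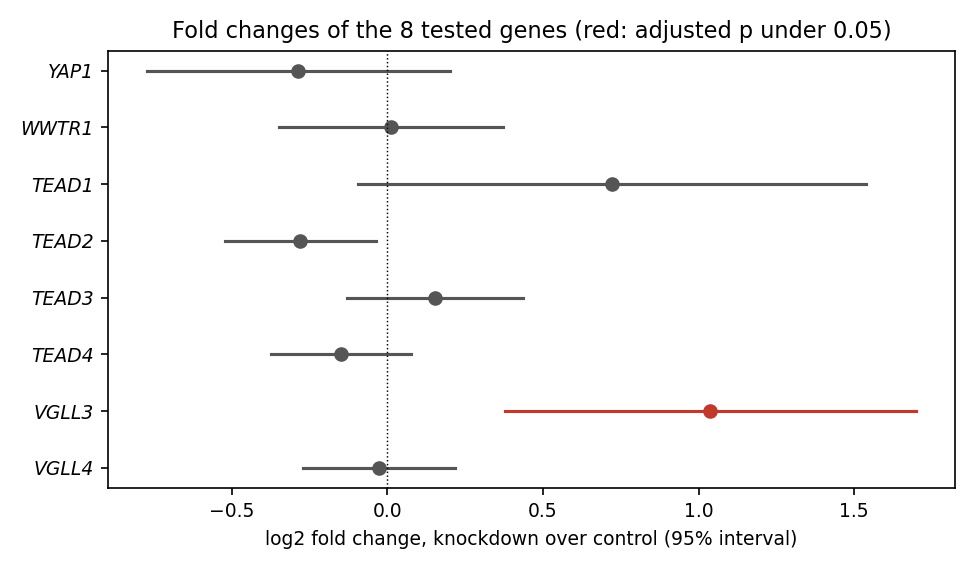
Log2 fold change (knockdown over control) with its 95% interval for the 8 tested genes; red marks an adjusted p under 0.05. VGLL3 at 1.04 is the called gene, and the intervals of YAP1, WWTR1, TEAD1, TEAD3, TEAD4 and VGLL4 include 0.

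YAP1 (ENSG00000137693; GRCh38 chromosome 11, 102110461 to 102233423, plus strand) held 163, 277 and 198 reads in knockdowns 1 to 3, or 8.96, 12.1 and 7.60 CPM, against 200, 287 and 360 reads in controls 1 to 3, or 8.76, 12.4 and 13.8 CPM. The groups overlapped: knockdown 2 was close to control 2, and control 1 lay below knockdown 1. The fitted value was -0.29 (SE 0.23, 95% interval -0.77 to 0.20, adjusted p = 0.486), an interval that reaches from 0.586-fold to 1.15-fold. Without knockdown 2 it was -0.52 (adjusted p = 0.185) and without knockdown 3 it was -0.15 (adjusted p = 0.799). Of the exon bases of YAP1, 9.97% also belong to an antisense gene, and since the strand setting of the counting is not given in the sources used here, reads of the pair cannot be told apart.

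WWTR1 (ENSG00000018408; chromosome 3, 149517235 to 149736714, minus strand) stood at 25.0, 19.7 and 24.4 CPM in knockdowns 1 to 3 and at 22.4, 18.8 and 27.2 CPM in controls 1 to 3. The knockdown libraries lay inside the range of the controls, with a log2 fold change of 0.01 (SE 0.17, 95% interval -0.35 to 0.37, adjusted p = 0.978) whose sign turned with RLE scaling (-0.0027). WWTR1-AS1, on the opposite strand, covers 9.45% of these exons. YAP1 made up 32.2%, 44.9% and 29.2% of the summed YAP1 and WWTR1 level per kb in knockdowns 1 to 3 and 34.1%, 46.5% and 40.2% in controls 1 to 3. Within a library, the log2 ratio of YAP1 to WWTR1 reads averaged -1.29 ± 0.52 in knockdowns and -0.98 ± 0.37 in controls (SD, n = 3 each). The difference of -0.31 had p = 0.4 in an exact two-sided permutation test, in which 3 against 3 cannot go below 0.1. The summed coactivator level was 4.27 ± 0.144 CPM per kb in knockdowns and 4.58 ± 0.758 CPM per kb in controls (SD, n = 3 each).

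The TEAD proteins recognise the same DNA element and differ mainly in where they are expressed. TEAD4 (ENSG00000197905; chromosome 12, 2959330 to 3040673) stood at 86.1, 79.6 and 78.9 CPM in knockdowns 1 to 3 and at 94.5, 85.8 and 90.9 CPM in controls 1 to 3. Knockdown 1 lay just above control 2 and the other knockdowns below all controls, and the change was -0.15 on the log2 scale (SE 0.11, adjusted p = 0.422). TEAD3 (ENSG00000007866; chromosome 6, 35473597 to 35497076) had 122, 83.3 and 108 CPM in knockdowns 1 to 3 and 101, 84.7 and 96.4 CPM in controls 1 to 3. Knockdown 2 was the lowest of all 6 libraries and knockdown 1 the highest, and the change of 0.15 (SE 0.13, adjusted p = 0.522) was not called.

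TEAD2 (ENSG00000074219; chromosome 19, 49340595 to 49362457) was the tested gene of the set whose groups did not overlap, which was the case for 30.7% of all tested genes and for 15.1% in the lower direction. It had 48.8, 46.1 and 45.1 CPM in knockdowns 1 to 3 and 54.0, 59.4 and 56.6 CPM in controls 1 to 3. All knockdown libraries were below all controls, with a log2 fold change of -0.28 (SE 0.11, 95% interval -0.52 to -0.04). The unadjusted p was 0.0266 and the adjusted p 0.129, so it was not called. CD37, on the opposite strand, covers 10.7% of these exons.

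TEAD1 (ENSG00000187079; chromosome 11, 12674591 to 12944483) was near the bottom of the order. It had 51, 144 and 56 reads in knockdowns 1 to 3 (2.80, 6.30 and 2.15 CPM) and 43, 61 and 60 reads in controls 1 to 3 (1.88, 2.63 and 2.30 CPM). Knockdown 2 stood apart and the other knockdowns were close to the controls. The change of 0.72 on the log2 scale (SE 0.39, adjusted p = 0.259) was not called, and it was 0.09 without knockdown 2 (adjusted p = 0.922). Of the summed TEAD level per kb, TEAD1 made up 0.421% ± 0.287 in knockdowns and 0.238% ± 0.0485 in controls, and TEAD2 18.3% ± 1.30 in knockdowns and 21.2% ± 1.90 in controls (SD, n = 3 each). TEAD3 made up 39.6% ± 4.12 in knockdowns and 34.3% ± 1.65 in controls, and TEAD4 41.7% ± 2.53 in knockdowns and 44.3% ± 0.401 in controls (SD, n = 3 each). The TEAD sum was 86.2 ± 8.15 CPM per kb in knockdowns and 89.8 ± 3.71 CPM per kb in controls (SD, n = 3 each).

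VGLL3 rose. VGLL3 (ENSG00000206538; chromosome 3, 86876388 to 86991119, minus strand) held 237, 494 and 210 reads in knockdowns 1 to 3, or 13.0, 21.6 and 8.06 CPM, against 119, 161 and 224 reads in controls 1 to 3, or 5.21, 6.93 and 8.60 CPM. Knockdowns 1 and 2 were above all controls and knockdown 3 was below control 3, so the groups overlapped. The fitted change was 1.04 on the log2 scale (SE 0.31, 95% interval 0.38 to 1.70, adjusted p = 0.0394), or 2.05-fold. The call was lost without knockdown 1 (1.09, adjusted p = 0.0682), knockdown 2 (0.57, adjusted p = 0.199), control 1 (0.85, adjusted p = 0.176), control 2 (1.04, adjusted p = 0.169) or control 3 (1.23, adjusted p = 0.0642), and with limma-voom (0.92, adjusted p = 0.0775) or the replicate number as a block (0.96, adjusted p = 0.0582). It was kept without knockdown 3 (1.32, adjusted p = 0.00524), with RLE scaling (adjusted p = 0.0319) and without a scaling factor (adjusted p = 0.0495). The call was also kept without a filter (adjusted p = 1.29e-04), with the stricter filter (adjusted p = 0.0491) and with DESeq2 (adjusted p = 0.00813). The sign was positive in each of these fits. With a minimum fold of 1.2 the call was lost.

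**Figure D3:**
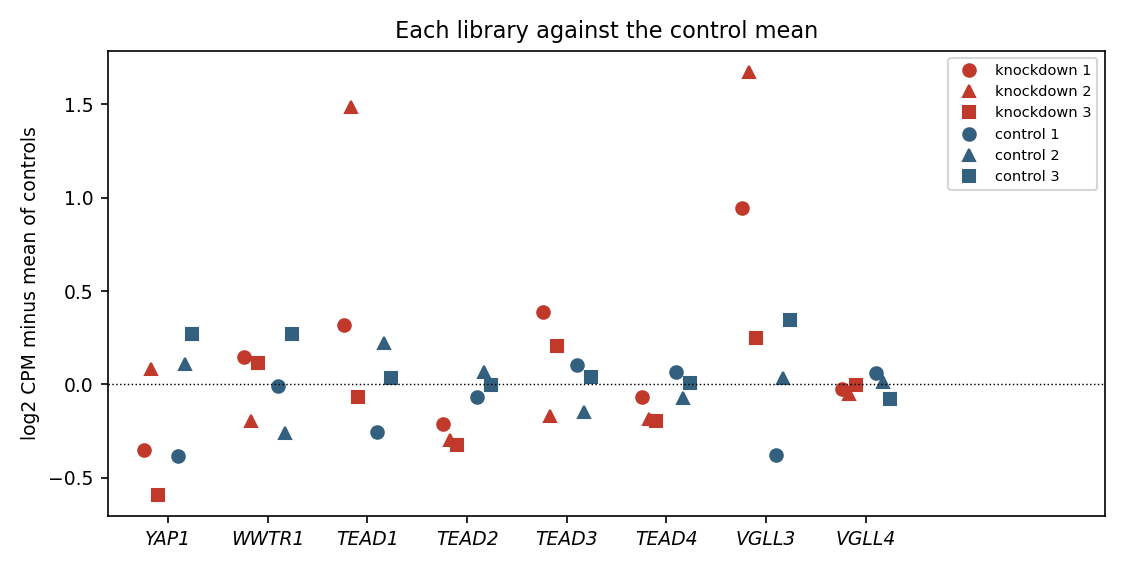
Log2 CPM of each library minus the mean log2 CPM of the controls, for the 8 tested genes; red symbols are knockdown and blue symbols control libraries, with the shape giving the replicate number. Knockdown 2 is the highest of the 6 libraries for TEAD1 and VGLL3, and for TEAD2 all knockdowns lie below all controls.

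Knockdown 2 was high for TEAD1, VGLL3 and YAP1 together. Against the mean of the other knockdown libraries it deviated by 1.33 on the log2 scale for TEAD1, 1.07 for VGLL3 and 0.55 for YAP1, and by -0.47 for TEAD3 and -0.33 for WWTR1. Deviations at least as high were found for 2.55% of the tested genes in the case of TEAD1, 5% in the case of VGLL3 and 16.4% in the case of YAP1. TEAD1 and VGLL3 have the longest gene lengths of the set, 10700 and 12740 bases. In knockdown 2 the median deviation of the 1956 tested genes of 10000 bases or more was 0.16, and that of the 12693 shorter genes was -0.03; in knockdown 3 these medians were -0.11 and 0.03. Among the controls, each was set against the other controls. The median of the long genes was -0.15 in control 1, where VGLL3 deviated by -0.56 and TEAD1 by -0.37. It was 0.12 in control 3, where VGLL3 deviated by 0.51 and TEAD1 by 0.05. In control 2 this median was 0.04, with VGLL3 at 0.05 and TEAD1 at 0.32. In knockdown 1 it was 0.03, with VGLL3 at -0.02 and TEAD1 at -0.39. The part of gene length in the values of TEAD1 and VGLL3 was not tested.

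**Figure D4:**
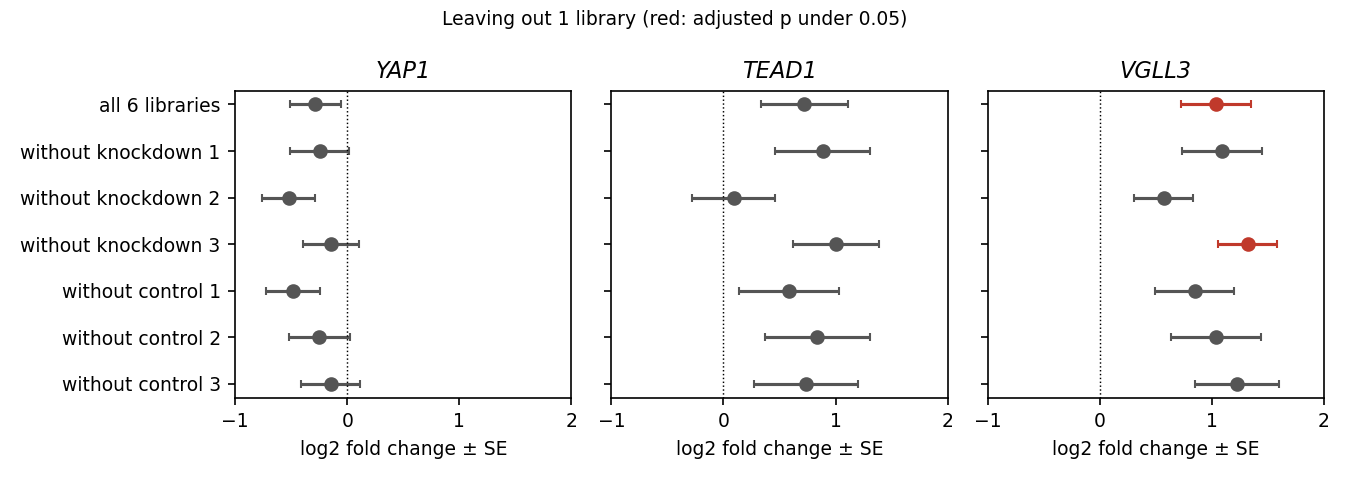
Log2 fold change (knockdown over control) with its SE for YAP1, TEAD1 and VGLL3, with all 6 libraries and with each library left out; red marks an adjusted p under 0.05. Leaving out knockdown 2 gives -0.52 for YAP1, 0.09 for TEAD1 and 0.57 for VGLL3.

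VGLL4 (ENSG00000144560; chromosome 3, 11556070 to 11771350), the repressive competitor of YAP1, differed little between libraries, with 48.2, 47.3 and 48.9 CPM in knockdowns 1 to 3 and 51.2, 49.5 and 46.5 CPM in controls 1 to 3. The knockdowns lay inside the control range. Its log2 fold change was -0.03 (SE 0.12, 95% interval -0.27 to 0.22, adjusted p = 0.917), and the sign turned without a scaling factor (0.06) and with the stricter filter (0.01). Genes on the opposite strand, ATG7 and AC022001.2, cover 23.7% of its exons. VGLL4 made up 82.7% ± 6.90 of the summed level per kb of VGLL1, VGLL3 and VGLL4 in knockdowns and 91.9% ± 1.48 in controls. VGLL3 made up 13.5% ± 5.61 in knockdowns and 7.36% ± 2.03 in controls (SD, n = 3 each for both genes). VGLL2 was left out of this sum, though it stood above VGLL3 and VGLL1. It was at 3.50 ± 0.351 CPM per kb in knockdowns and 4.34 ± 1.12 in controls (SD, n = 3 each). The percentages are therefore not shares of the whole Vestigial-like family.

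VGLL1 (ENSG00000102243; chromosome X, 136532152 to 136556807) was close to the detection limit, with 6, 16 and 9 reads in knockdowns 1 to 3 and 4, 1 and 1 reads in controls 1 to 3. Each knockdown library, at 0.330, 0.700 and 0.346 CPM, was above each control library, at 0.175, 0.0431 and 0.0384 CPM. Such separation in the higher direction was found for 15.5% of all tested genes, among which VGLL1 was not. The pooled 31 reads in knockdowns and 6 in controls gave a depth-scaled ratio of 5.55 with an exact 95% counting interval from 2.28 to 16.3, which covers counting error in these libraries only. Without a count filter edgeR gave 2.36 on the log2 scale (SE 1.23, adjusted p = 0.302 over 25291 genes), so the difference was not called. VGLL2, the remaining gene of the family, which is known from skeletal muscle, had 7.15, 7.61 and 8.68 CPM in knockdowns 1 to 3 and 6.97, 11.9 and 10.2 CPM in controls 1 to 3, with overlapping groups and a change of -0.31 on the log2 scale (adjusted p = 0.449).

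The genes whose pattern over the 6 libraries lay nearest to that of YAP1 were MRPS9, RUFY1 and NOM1, and those nearest to WWTR1 were RFLNB, MPP1 and SPPL3. Likeness was the root mean square difference of log2 CPM, each gene centred on its own mean, among 7869 candidate genes. It was 0.0595 for MRPS9, 0.0597 for both RUFY1 and NOM1, and 0.0426, 0.0499 and 0.0552 for RFLNB, MPP1 and SPPL3. The median over all candidates was 0.378 for YAP1 and 0.278 for WWTR1.

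Upstream of the coactivators, MOB1B, SLMAP, FRMD6, RASSF1 and the kinase gene MINK1 rose, and the kinase gene MAP4K2 fell. Of 48 listed Hippo pathway genes 40 were tested, of which 5 rose, 1 fell and 34 were not called (15% called, against 12.9% of all genes), with a median log2 fold change of 0.22 against 0.03 over all genes. The share called was near the background, and so not a result about the list. MAP4K2, a kinase acting in parallel to the MST kinases, had 29.6 ± 5.19 CPM in knockdowns and 74.6 ± 2.88 CPM in controls (SD, n = 3 each; -1.33, adjusted p = 7.09e-06). FRMD6, a membrane-associated FERM protein, had 15.2 ± 2.80 CPM in knockdowns and 8.0 ± 1.43 CPM in controls (SD, n = 3 each; 0.92, adjusted p = 0.0071). SLMAP, which brings the phosphatase complex STRIPAK to the MST kinases, rose by 1.25 (adjusted p = 0.0412). This call was lost without knockdown 2 (0.87, adjusted p = 0.197), knockdown 3, control 1 or control 2, and with limma-voom (adjusted p = 0.0611). MOB1B, an activator of LATS, rested on 31 reads in knockdowns and 3 in controls, which is 11.1-fold after depth scaling (95% counting interval 3.46 to 56.8), and its call was lost without knockdown 1, knockdown 2 or any one control library; without knockdown 3 it was not tested, having too few reads for the filter. That call was also lost with the replicate block (adjusted p = 0.0740) and without a filter (adjusted p = 0.130). RASSF1 (0.49, adjusted p = 0.00898) and MINK1 (0.49, adjusted p = 0.0162) also rose, and are named beyond the limit of 3 genes per direction. The call of RASSF1 was lost without control 3 (adjusted p = 0.0526), and that of MINK1 without knockdown 3, control 1 or control 3. The core kinases were not called: STK3 had 0.56, STK4 0.17, LATS1 0.48 and LATS2 0.52, with adjusted p-values of 0.294, 0.767, 0.453 and 0.254; they were named after their values were seen. The count of 6 was 3 without knockdown 3 or without control 1.

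Among genes that hold YAP1 and TAZ in the cytoplasm or direct their turnover, AMOTL2, an angiomotin that binds YAP1, was the one called. It had 326 ± 38.0 CPM in knockdowns and 433 ± 30.0 CPM in controls (SD, n = 3 each; -0.41, adjusted p = 0.0195), and lost the call without knockdown 3 (adjusted p = 0.0875) or control 1 (adjusted p = 0.0637). Of 35 tested genes of 36 listed, 0 rose and 1 fell by edgeR (2.86% called, against 12.9% of all genes; 2 higher and 6 lower at an unadjusted p under 0.05), and DESeq2 called 1 higher and 3 lower. The median log2 fold change was 0.06, against 0.03 over all genes. The count of 1 was 4 without knockdown 1, 3 without knockdown 2 and 0 without control 1.

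Among nuclear partners of YAP1, TAZ and TEAD, EGR1, FOS, JUNB, SRF, FOSL2 and SMAD3 fell and KLF4 rose. Of 33 tested genes of 40 listed, 1 rose, 6 fell and 26 were not called (21.2% called, against 12.9% of all genes), with a median log2 fold change of -0.01 against 0.03 over all genes. EGR1, an immediate early factor, had 117 ± 14.1 CPM in knockdowns and 505 ± 83.9 CPM in controls (SD, n = 3 each; -2.11, adjusted p = 3.88e-08). FOS, an AP-1 subunit, had 7.65 ± 1.82 CPM in knockdowns and 20.9 ± 2.94 CPM in controls (-1.44, adjusted p = 1.61e-04), and the AP-1 gene JUNB 259 ± 29.8 CPM in knockdowns and 570.0 ± 13.0 CPM in controls (-1.14, adjusted p = 2.72e-06; SD, n = 3 each). SRF (-0.61), FOSL2 (-0.45) and SMAD3 (-0.37) were the other genes that fell. The call of FOSL2 was lost without knockdown 3. That of SMAD3 was lost without knockdown 3, control 1 or control 3, and without a scaling factor (adjusted p = 0.0664). KLF4, a squamous differentiation factor, rose by 0.84 (adjusted p = 0.0473), a call lost without knockdown 1, knockdown 2, control 2 or control 3 (adjusted p from 0.143 to 0.205). The call of KLF4 was also lost with limma-voom (adjusted p = 0.0783). JUN and FOSL1, AP-1 subunits known to bind beside TEADs, had -0.06 and 0.06 (adjusted p = 0.816 and 0.795), and TP63 had -0.01 (adjusted p = 0.986); these were named after their values were seen.

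The transcriptional targets of the set did not move in one direction. Of 21 tested genes of 22 listed, 2 rose, 2 fell and 17 were not called (19% called, against 12.9% of all genes), with a median log2 fold change of 0.00057 against 0.03 over all genes. AXL, a receptor tyrosine kinase, had 426 ± 119 CPM in knockdowns and 267 ± 18.5 CPM in controls (SD, n = 3 each; 0.67, adjusted p = 0.0109), and NT5E, an ectonucleotidase, 21.2 ± 3.09 CPM in knockdowns and 14.2 ± 1.47 CPM in controls (SD, n = 3 each; 0.57, adjusted p = 0.0361). AMOTL2, also in the turnover list, and IGFBP3, a binding protein for insulin-like growth factors (-0.37, adjusted p = 0.0363), fell. CCN1 (0.00057, sign turned with RLE scaling), CCN2 (0.19, sign turned without control 2) and ANKRD1 (0.59, adjusted p = 0.133) were not called. The call of NT5E was lost without knockdown 2, knockdown 3 or any one control library. That of IGFBP3 was lost without knockdown 2, control 1 or control 3, and without a scaling factor (adjusted p = 0.0612). The count of 4 was 1 without control 1 and 2 without control 3.

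**Figure D5:**
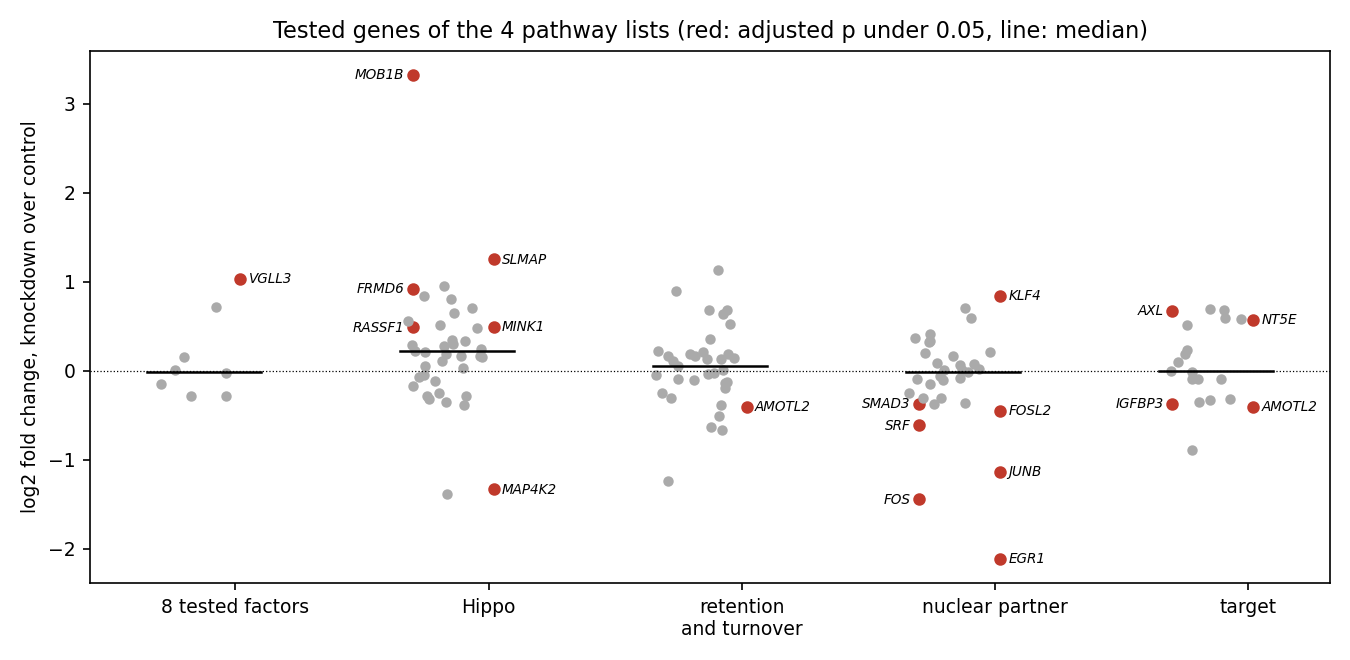
Log2 fold change (knockdown over control) of the tested genes among the 9 factors and in the 4 pathway lists; red points with a name have an adjusted p under 0.05, grey points do not, and black lines are medians. EGR1 at -2.11 and MOB1B at 3.33 are the extremes.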

How the data were processed

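The authors deposited raw read counts per gene (a whole-number count for each of 6 libraries) with a gene length in bases. Per the submitters' processing notes, the tools were featureCounts 2.0.0, SAMtools 1.10, HISAT2 2.1.0 and cutadapt 2.8, with the build hg38; annotation release, strand setting and handling of multiply mapped reads were not given in the sources used here. Per the labels' protocols the libraries were strand-marked (dUTP). The number of per-sample columns not used was 0.

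Genes were kept with filterByExpr (minimum count 10, minimum total 15), which left 14649 of 62700. The test was that of edgeR 4.0.16 under R 4.3.3 (TMM, robust dispersions, glmQLFit and glmQLFTest, 2 groups, no covariate) with Benjamini-Hochberg adjustment over all tested genes, and called at an adjusted p under 0.05. The SE is the coefficient over the square root of the quasi-F statistic. Levels per kb are TMM-scaled CPM divided by the deposited length. Counting intervals are exact (95%) and, like floors of 3 reads, cover counting error only. Coordinates and exon overlaps were read from GENCODE 29 (GRCh38, which is hg38). Replicates of a group differed by more than sampling noise (chi-square per degree of freedom 14.6 to 36.2), so none was counted as a copy.

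The members and the 4 pathway lists were chosen with earlier results of these data known. Genes named were the 9 members, IGF2BP1, up to 3 called genes per direction and list, CCN1, CCN2 and ANKRD1, and the 3 nearest patterns to YAP1 and to WWTR1 (mean of at least 5 CPM). RASSF1, MINK1, SRF, FOSL2, SMAD3, VGLL2 and the cell type markers were named beyond this rule. Further exceptions are stated where they occur. Alternatives were RLE scaling, no scaling factor, no filter, each library left out, the replicate number as a block, a stricter filter of at least 5 CPM in 3 libraries, DESeq2 1.42.0, limma-voom (limma 3.58.1) and a minimum fold of 1.2 (glmTreat). The test was checked on simulated data. A leukocyte marker is not reported here.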

Additional observations from a re-analysis of the deposited data

How the results depend on the processing

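Leaving out 1 library moved the count of called genes between 1231 and 1948 (1893 with all 6), that of the 9 factors between 0 and 1, of the Hippo list between 3 and 6, of the retention and turnover list between 0 and 4, of the nuclear partner list between 5 and 7 and of the target list between 1 and 4. YAP1 then lay between -0.52 and -0.15, WWTR1 between -0.13 and 0.14, CCN1 between -0.069 and 0.050, CCN2 between -0.0059 and 0.30, and the YAP1 to WWTR1 difference between -0.60 and -0.11. With a minimum fold of 1.2, 972 genes and 0 of the 9 factors were called; the factors' count was also 0 with limma-voom and with the replicate block. The retention and turnover list had 2 calls without a scaling factor, 3 without a filter, 3 with the replicate block and 4 with DESeq2. WWTR1 was -0.0027 with RLE scaling, -0.0041 without a filter and -0.0065 with DESeq2. VGLL4 was 0.058 without a scaling factor and 0.011 with the stricter filter. CCN1 was -0.015 with RLE scaling, -0.015 without a filter, -0.0019 with the replicate block, -0.019 with DESeq2 and -0.0028 with limma-voom. YAP1 was not called in any of these fits (adjusted p from 0.185 to 0.80). Of the 17 called list genes, 7 kept the call in each alternative that tested them, minimum fold aside, and 10 lost it in at least 1; none reversed. The cause of these changes was not tested.

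Replicate numbers were not taken as pairs: across tested genes, deviations of same-numbered libraries correlated at 0.18, 0.09 and -0.07 for numbers 1 to 3, and not every library correlated best with its own number. With the replicate block YAP1 was -0.29 (adjusted p = 0.413), and the YAP1 to WWTR1 difference was -0.31. VGLL1 and MOB1B rest on few reads, so smaller changes in them were not detectable at this depth. TEAD1 had more reads but differed between the knockdown libraries (SE 0.39), so smaller changes in it were not detectable with these libraries.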

Other observations

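Several regulators and partners of YAP1 and TAZ had no or few reads in these cells. AMOT, the founding angiomotin, FAT1, an atypical cadherin upstream of the Hippo kinases, and FRMD1 held 0 reads in all 6 libraries, which allows at most 0.115 to 0.165 CPM per library, depending on its depth. The partners ERBB4, TBX5, PAX3, MYOD1 and HNF4A also held 0 reads in each library. ZEB1, an epithelial-mesenchymal transition factor that can bind YAP1, held 3 reads over the knockdown libraries and 4 over the control libraries, and FAT4 held 15 over the knockdown libraries and 34 over the control libraries. These genes were named after their values were seen.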
